A study of Mus musculus with 48 samples.

Results

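The hearts described here came from mice without Cre recombinase, and the comparison is between those that carried a floxed Bmal1 allele and those that did not. Of the 48 libraries in the study, 24 were Cre-free. Both ventricles of 1 male mouse labelled C57BL/6 were used for each library. Floxed Bmal1 was carried by the 12 libraries of the BMAL1 FLOX group (floxed Bmal1, E4bp4 not floxed, n = 6) and the BMAL1/E4BP4 FLOX group (both genes floxed, n = 6). The 12 libraries without it were the WT group (neither gene floxed, n = 6) and the E4BP4 FLOX group (floxed E4bp4 only, n = 6). Floxed alleles were homozygous, per the series' design text. The other 24 libraries came from littermates with 1 copy of Cre under the MHCα promoter, which is active in cardiomyocytes. They were the groups Cre CON (Cre alone), CEK (Cre with floxed E4bp4), CBK (Cre with floxed Bmal1) and CBK/CEK (Cre with both). The labels give no age, no treatment and no strain of origin for the floxed alleles. The animals of both floxed Bmal1 groups share an animal-name prefix that no WT or E4BP4 FLOX animal carries, so the allele and the series of animals cannot be told apart. WT and E4BP4 FLOX animals also differ from each other in prefix, so the side without the allele pools animals of different series.

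Bmal1, listed as Arntl on chromosome 7, encodes the activator that pairs with CLOCK at the centre of the circadian clock. E4bp4, listed as Nfil3 on chromosome 13, encodes a repressor that binds D-box elements of clock output genes. In a floxed allele, loxP sites flank part of a gene, and the gene stays intact until Cre removes that part. When a targeted allele made in embryonic stem cells is bred onto another strain, neighbouring DNA of the original strain is inherited with it. How long that neighbouring piece is depends on how many crosses were made.

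Assigned reads ran from 13128833 to 26267619 per Cre-free library, apart from WT replicate 1 with 126338949. BMAL1/E4BP4 FLOX replicate 6 had the fewest reads, and 34.8% of its reads went to the gene ENSMUSG00000119584. By group, that gene took 0.738% ± 0.24 of reads in WT, 10.3% ± 4.18 in E4BP4 FLOX, 2.08% ± 0.504 in BMAL1 FLOX and 7.17% ± 13.5 in BMAL1/E4BP4 FLOX (SD). Assigned reads averaged 63.1% of all counts in E4BP4 FLOX and 69.3% in WT. Comparisons with E4BP4 FLOX therefore include a difference between libraries. Counts from these libraries were fitted in a single edgeR quasi-likelihood model of 4 group means, and a gene was called at a Benjamini-Hochberg adjusted p under 0.05 over all genes tested. Adjusted p values below are those of edgeR unless another tool is named. Levels are given in CPM, read counts scaled to library size, after trimmed-mean scaling, and differences are on the log2 scale, floxed minus not floxed, with a standard error (SE). A difference between bulk samples can come from fewer cells of a type or from less RNA per cell, and these data do not separate the 2.

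Neither targeted gene was called with the floxed Bmal1 allele. Arntl was low in all 4 groups. Its lowest, median and highest level was 0.631, 0.887 and 1.69 CPM in the 12 hearts without the allele, and 0.518, 1.06 and 1.48 CPM in the 12 floxed hearts. The ranges overlapped, and the log2 fold change was 0.02 (SE 0.23, adjusted p = 0.987). Nfil3 lay between 6.45 and 12.1 CPM without the allele and between 6.91 and 13.6 CPM with it (log2 difference 0.18, SE 0.10, adjusted p = 0.574). Of 24 core clock and clock output genes tested, 0 were called, beside 0.724% of all genes tested. Their median log2 fold change was -0.03 beside 0.00 over all genes. The largest differences in that list were Nr1d1, which encodes the repressor REV-ERB alpha (log2 difference -0.23, adjusted p = 0.734), and Per2, a negative limb gene (-0.21, adjusted p = 0.591). In Cre hearts, in contrast, total Arntl reads were higher with floxed Bmal1 (log2 difference 3.20, SE 0.26, adjusted p = 1.01e-09).

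Across the genome, 112 of 15463 genes tested were called (0.724%), 67 higher (0.433%) and 45 lower (0.291%) in floxed Bmal1 hearts, and 33 of them by more than 2-fold. Chromosome 7, where Bmal1 lies, held 51 of these calls among 1196 genes tested (4.26%), of which 26 were higher and 25 lower. All other chromosomes together held 61 calls among 14267 genes (0.428%). In 23 genes (0.149% of those tested) the 12 floxed hearts did not overlap the 12 others at all, and 17 of the 23 were on chromosome 7. Without WT replicate 1 and BMAL1/E4BP4 FLOX replicate 6 the counts were 111 over all chromosomes and 51 on chromosome 7. DESeq2 called 111 genes higher and 76 lower, 57 of them on chromosome 7, and edgeR at an adjusted p under 0.01 called 53, of which 32 were on chromosome 7.

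**Figure D1:**
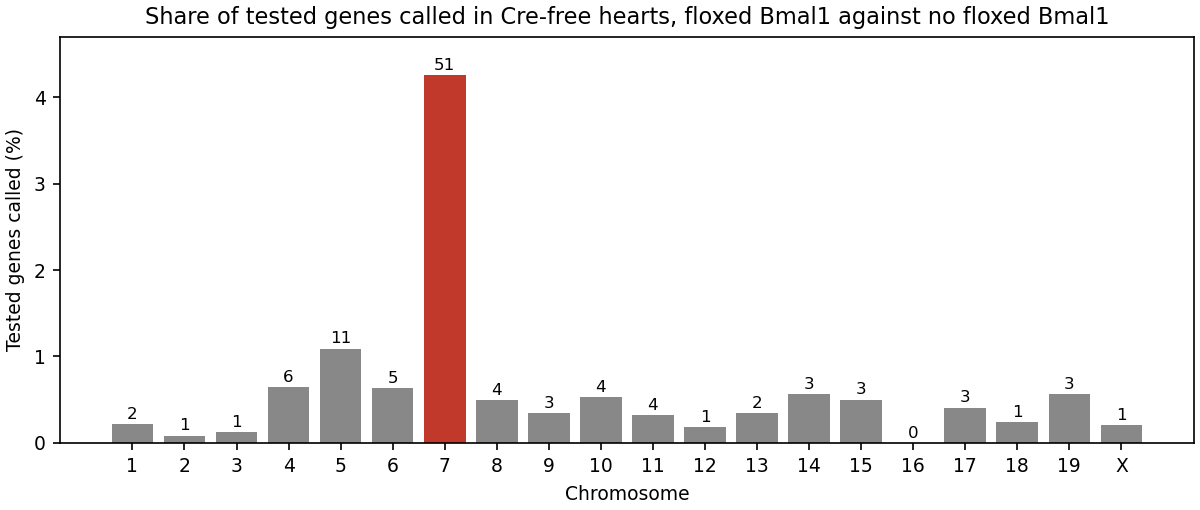
Share of tested genes called (%, vertical axis) by chromosome (horizontal axis) in the 24 Cre-free hearts, with the number called above each bar. Chromosome 7 stands at 4.26%, chromosome 5 follows at 1.09%, and chromosome 16 has 0 calls; the mitochondrial genome and scaffolds are not drawn.

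The calls on chromosome 7 lay mostly in a stretch next to and including Bmal1. Positions are given here as the number of tested genes from Arntl, negative toward the start of the chromosome, in the order of the GENCODE M21 annotation. In consecutive windows of 50 genes from 250 before Arntl to 49 after it, the calls numbered 8, 10, 11, 9, 1 and 6. Every other window of the chromosome held 0 to 2. From Ngrn, 246 genes before Arntl, to Gde1, 30 genes after it, 45 of 277 tested genes were called (16.2%), 22 higher and 23 lower. The ends of the stretch were set after the values were seen. In the rest of the chromosome 6 of 919 genes were called (0.653%). These were Myh14, Hrc, Kcnj14, Kdelr1, Mvp and Pnpla2. Among the 232 genes of the stretch that were not called, the median absolute log2 fold change was 0.143, beside 0.0931 over all genes tested.

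**Figure D2:**
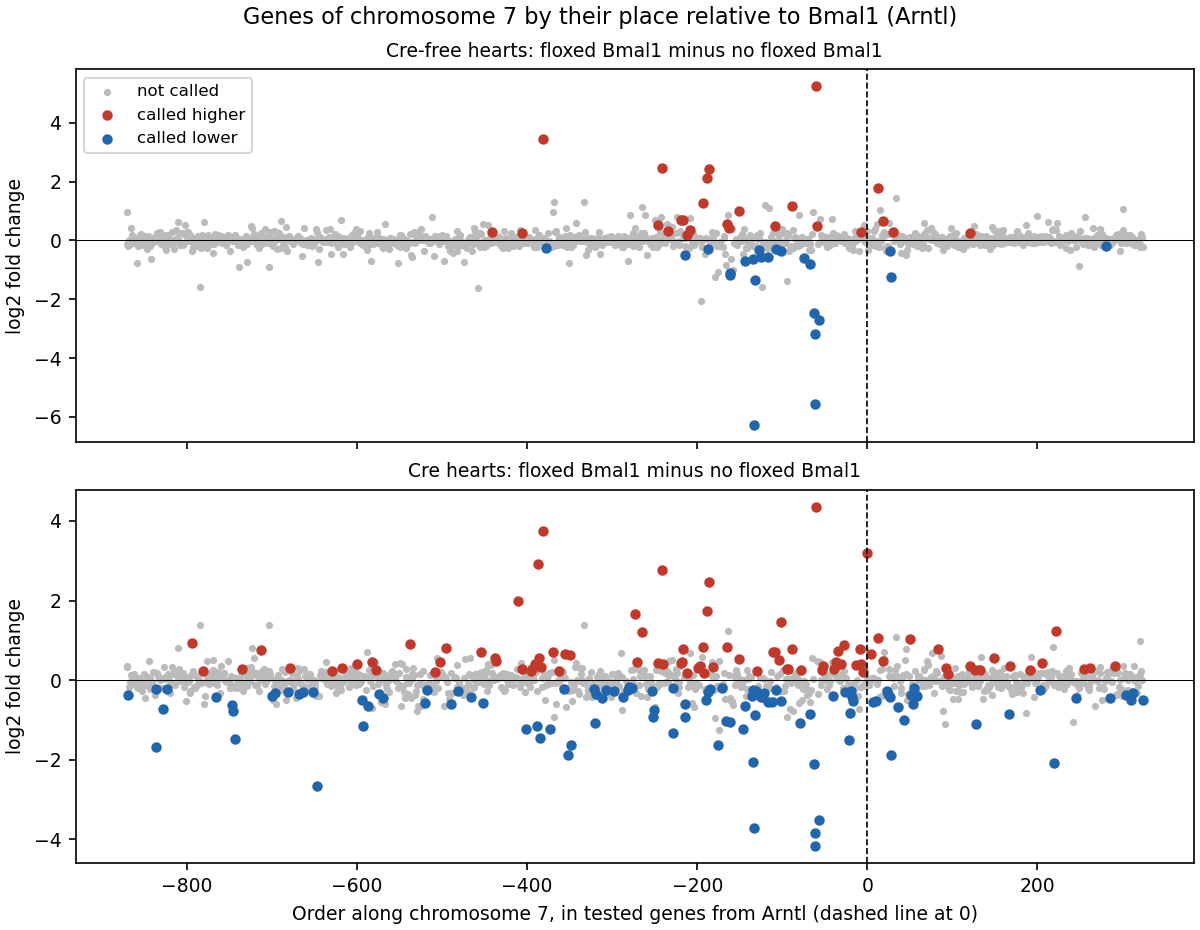
Log2 fold change (vertical axis) of chromosome 7 genes by their order in tested genes from Arntl (horizontal axis), in Cre-free hearts (top) and Cre hearts (bottom); grey points were not called, red were called higher and blue lower. The 3 genes with at most 3 reads on a side are left out; in the top panel calls crowd between -246 and 30.

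Among metabolic genes of the stretch, Fah, which encodes fumarylacetoacetate hydrolase of tyrosine breakdown, was higher in floxed Bmal1 hearts. Its lowest, median and highest level was 15.05, 20.98 and 27.7 CPM without the allele, and 40.7, 50.5 and 63.1 CPM with it. Every floxed heart lay above every other heart, and the log2 fold change was 1.26 (SE 0.08, adjusted p = 3.14e-12). Hddc3, which encodes the NADPH phosphatase MESH1, had 0.491, 1.04 and 1.76 CPM without the allele and 4.78, 5.66 and 7.81 CPM with it. These ranges did not overlap either (log2 difference 2.48, SE 0.17, adjusted p = 1.71e-11).

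Dgat2, the enzyme of the last step of triglyceride synthesis, was lower. It had 542, 591 and 697 CPM at its lowest, median and highest without the allele, against 293, 385 and 459 CPM with it. No floxed heart reached the lowest of the others (log2 difference -0.64, SE 0.06, adjusted p = 4.38e-08). In Cre hearts the difference in Dgat2 with floxed Bmal1 was -2.05 on the log2 scale (SE 0.10, adjusted p = 3.68e-15). Thrsp, which encodes the lipogenic protein Spot 14, was higher, at 22.7, 27.5 and 51.0 CPM without the allele and 39.7, 60.7 and 77.7 CPM with it (log2 difference 1.00, SE 0.13, adjusted p = 2.78e-05). Its ranges overlapped. Of 9 adipocyte markers tested 0 were called, beside 0.724% of all genes tested. Their median log2 fold change was -0.33, with 2 above 0. The adipocyte markers summed to 492 to 841 CPM in WT, 550 to 802 CPM in E4BP4 FLOX, 546 to 856 CPM in BMAL1 FLOX and 473 to 827 CPM in BMAL1/E4BP4 FLOX. Lep and Ucp1 were too low to be tested. Their part in the Dgat2 and Thrsp results was not tested.

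Structural and transport genes of the stretch went in both directions. Fsd2, a gene of striated muscle, rose from a median of 173.2 CPM to 275 CPM, and the lowest floxed heart, at 215 CPM, lay above all 12 others (log2 difference 0.71, SE 0.06, adjusted p = 2.15e-09). Plekha7, which encodes a protein of adherens junctions, had a median of 7.17 CPM and at most 16.1 CPM without the allele, and a median of 26.6 CPM and at most 35.2 CPM with it. All floxed hearts were above the highest other heart (log2 difference 1.79, SE 0.21, adjusted p = 1.65e-05). Map6, which encodes a microtubule-stabilising protein, fell from 4.62, 6.83 and 10.03 CPM to 1.56, 2.71 and 4.20 CPM, also without overlap (log2 difference -1.36, SE 0.14, adjusted p = 6.84e-08). Slco2b1, an organic anion transporter gene, was lower (log2 difference -0.55, adjusted p = 2.78e-05). Rab6a, which encodes a GTPase of the Golgi, was lower too, with a log2 fold change of -0.29 (adjusted p = 0.00132). Neither overlapped between the 2 sides.

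Within 50 tested genes of Arntl 7 genes were called. They were 1 of the 50 tested genes before Arntl (2%) and 6 of the 50 from Arntl onward (12%), beside 0.724% of all genes tested. Usp47, a deubiquitinase gene 8 places before Arntl, had a log2 fold change of 0.28 (SE 0.05, adjusted p = 0.00215). Plekha7 lay 13 places after it. Nucb2, which encodes the nesfatin precursor, lay 18 places after it and was higher by 0.66 (SE 0.10, adjusted p = 0.000236). The last 4 were consecutive tested genes, from 27 to 30 places after Arntl. Coq7, which encodes a hydroxylase of ubiquinone synthesis, was at -0.36 (adjusted p = 0.0111) and Gde1, a glycerophosphodiester phosphodiesterase gene, at 0.27 (adjusted p = 0.0111). The call of Coq7 was lost in the fit of all 48 libraries (adjusted p = 0.0871). Between them, the channel-like genes Tmc7 and Tmc5 were both lower. Tmc7 fell from 3.87, 7.36 and 10.01 CPM to 2.10, 3.01 and 4.74 CPM (log2 difference -1.23, SE 0.14, adjusted p = 3.40e-07). Tmc5 had 255 reads over the 12 hearts without the allele and 2 over the floxed hearts, a ratio of 115 with a 95% counting interval of 31.5 to 955.

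The TRIM genes of chromosome 7 form a cluster of antiviral ubiquitin ligase genes, and neighbours in it moved in opposite directions. Of 11 tested, 2 were called higher and 4 lower, where 16.2% of tested genes in the stretch and 0.724% of all genes tested were called. Trim12a had 13.4, 14.9 and 18.9 CPM without the allele. In the 6 BMAL1 FLOX hearts it had 0.379, 0.680 and 2.04 CPM, and in the 6 BMAL1/E4BP4 FLOX hearts 0.130, 2.00 and 14.3 CPM. The highest of these was replicate 6 alone, which sat among the unfloxed hearts (log2 difference -3.17, SE 0.44, adjusted p = 0.000250). Trim5 had 2.07, 2.80 and 4.24 CPM without the allele, and a median of 0 CPM with it. Its highest floxed value, 1.68 CPM, again belonged to BMAL1/E4BP4 FLOX replicate 6. Trim34b had the reverse pattern, with a median of 0 CPM and at most 0.156 CPM without the allele and 0.240, 0.847 and 1.32 CPM with it. Its ranges did not overlap (log2 difference 5.24, SE 0.58, adjusted p = 3.40e-07). Trim34a was lower (log2 difference -2.46, adjusted p = 2.08e-07), as was Trim30d (-2.71, adjusted p = 2.78e-05), while Trim12c was higher (0.49, adjusted p = 0.0148). Trim30a, between Trim12c and Trim30d in the cluster, was at -0.13 (adjusted p = 0.702). Trim5, Trim12a and Trim12c, and likewise Trim34a and Trim34b, are close copies of each other, so how reads were divided among them is uncertain.

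Beside the TRIM cluster, the adult beta-globin gene Hbb-bt was lower, at 13.8, 22.02 and 45.8 CPM without the allele and 9.41, 12.2 and 20.9 CPM with it (log2 difference -0.79, SE 0.17, adjusted p = 0.0210). Its adjusted p was 0.0545 without WT replicate 1 and BMAL1/E4BP4 FLOX replicate 6, and 0.0634 with no filter on low counts. Its near-identical neighbour Hbb-bs was at -0.31 (adjusted p = 0.687), and Hba-a1 on another chromosome at -0.23 (adjusted p = 0.751). Of 9 erythroid markers Hbb-bt alone was called, beside 0.724% of all genes tested, and 1 was above 0. The list summed to 565 to 1074 CPM in WT, 555 to 1408 CPM in E4BP4 FLOX, 480 to 976 CPM in BMAL1 FLOX and 471 to 719 CPM in BMAL1/E4BP4 FLOX. The part of blood in this result was not tested.

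Predicted genes of the stretch were also called. Gm35082 had 0 reads in all 12 hearts without the allele and 1.07, 2.26 and 3.45 CPM with it, at least 230-fold higher against a floor of 3 reads over the 12 libraries. Gm45012 had 1.69, 2.56 and 3.11 CPM without the allele and 0 CPM in the median floxed heart. BMAL1/E4BP4 FLOX replicate 6 was again the exception, at 0.721 CPM. Gm44751 was higher (log2 difference 2.11), while Gm31663 (-1.10) and Gm26862 (-1.17) were lower. With limma voom the adjusted p of Gm26862 was 0.0705, so its call was lost. Of the 112 called genes, 8 stayed under 1 CPM in every heart without the allele and 6 in every floxed heart. Those genes passed the filter through the side where they were high.

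**Figure D3:**
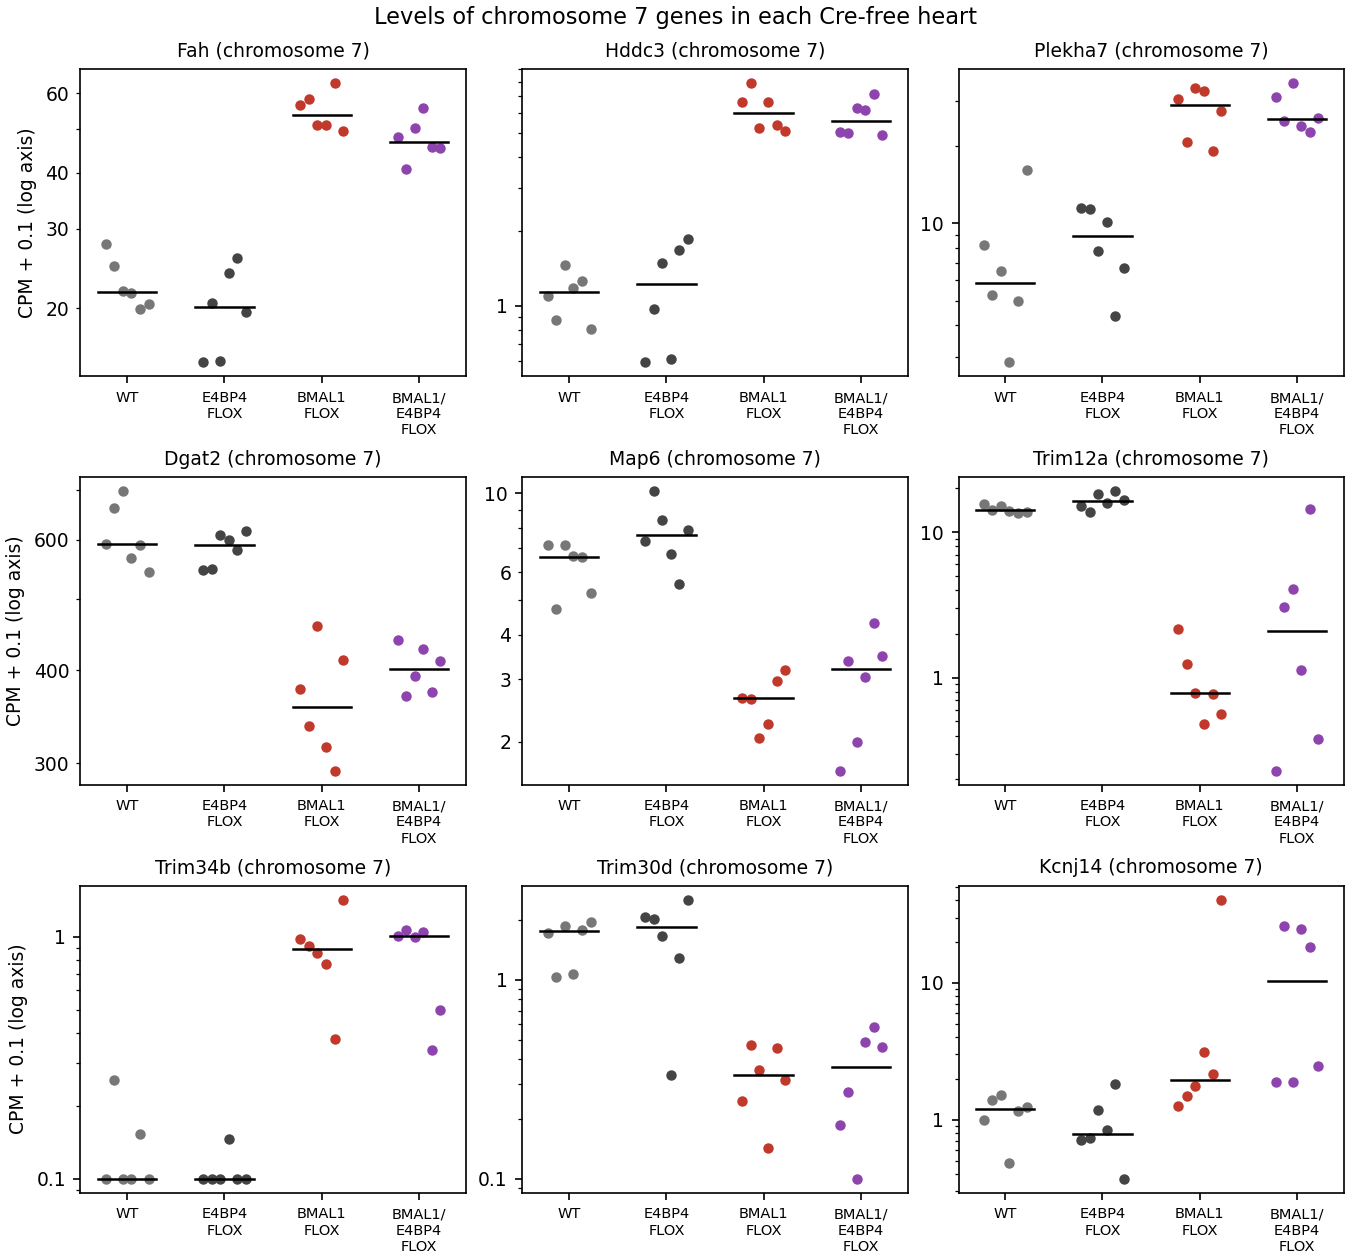
Level (CPM + 0.1, log axis) of 9 chromosome 7 genes in each Cre-free heart, 1 point per library and a bar at the group median, in the groups WT, E4BP4 FLOX, BMAL1 FLOX and BMAL1/E4BP4 FLOX. Fah, Hddc3 and Plekha7 lie higher and Dgat2 and Map6 lower in all 12 floxed hearts; Trim12a has 1 BMAL1/E4BP4 FLOX heart at 14.3 CPM, and Kcnj14 has 4 high floxed hearts.

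Kcnj14, which encodes an inward rectifier potassium channel, lay outside the stretch, 381 tested genes before Arntl. It had 0.271, 0.979 and 1.74 CPM without the allele and 1.17, 2.23 and 40.5 CPM with it. The high values were split within both floxed groups. BMAL1 FLOX replicate 4 had 40.5 CPM, and BMAL1/E4BP4 FLOX replicates 2, 5 and 6 had 24.6, 25.8 and 18.1 CPM. The other 8 floxed hearts were at 3.03 CPM or below. The fitted log2 fold change was 3.46 (SE 0.72, adjusted p = 0.0210), and the adjusted p was 0.343 with limma voom, 0.125 with a replicate block and 0.0624 without WT replicate 1 and BMAL1/E4BP4 FLOX replicate 6. In Cre hearts the log2 fold change was 3.75 (SE 0.41, adjusted p = 6.77e-07).

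Pseudogenes formed a second group of calls, and most of them lay on chromosomes other than 7. A processed pseudogene is a copy of a spliced messenger RNA inserted elsewhere in the genome. Each pseudogene tested was matched to its closest coding transcript by sequence. For 13 pseudogenes that transcript came from a gene of the chromosome 7 stretch, and 8 of the 13 were called (61.5%), 7 higher and 1 lower. Of the 8, 7 lay on other chromosomes. For 441 pseudogenes the closest transcript came from a chromosome other than 7, and 2 were called (0.454%), Gm31663 and Tmem181b-ps. Gm31663 itself lies in the stretch, and its match covered 190 of its 1524 bases. For 29 it came from chromosome 7 outside the stretch or from a gene that was not tested, and 0 were called. The 32 without a match also had 0 calls. These shares are not a test, because the ends of the stretch were set after the calls were seen. Copies low on both sides did not pass the filter. Among the called copies, Rps13-ps1, Rps13-ps2, Rps15a-ps3, Rps15a-ps4 and Gm44075 stayed under 1 CPM in every heart of 1 side. They passed the filter through the side where they were high. The 8 were Rps13-ps1 and Rps13-ps2, Rps15a-ps3, Rps15a-ps4, Rps15a-ps6 and Rps15a-ps7, Mrpl48-ps and Gm44075, the last of which is closest to Trim21. Rps13 and Rps15a encode proteins of the small ribosomal subunit. They lie 14 and 22 tested genes after Arntl.

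The coding sequences show how little separates these copies from their parents. The runs below are the sense strand of GENCODE M21 transcripts, bases 310 to 429 of the Rps13 coding sequence and bases 95 to 214 of that of Rps15a, counted from the A of the start codon. Capitals in a pseudogene mark bases that differ from the parent, and capitals in the parent mark the positions where any copy shown differs.
Rps13: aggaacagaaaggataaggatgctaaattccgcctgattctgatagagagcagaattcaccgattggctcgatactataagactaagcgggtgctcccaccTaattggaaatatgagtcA
Rps13-ps1: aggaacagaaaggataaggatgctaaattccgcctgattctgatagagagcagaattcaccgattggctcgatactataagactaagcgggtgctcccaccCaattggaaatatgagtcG
Rps13-ps2: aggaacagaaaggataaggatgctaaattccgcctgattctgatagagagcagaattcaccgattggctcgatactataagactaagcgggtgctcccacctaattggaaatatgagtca
Rps15a: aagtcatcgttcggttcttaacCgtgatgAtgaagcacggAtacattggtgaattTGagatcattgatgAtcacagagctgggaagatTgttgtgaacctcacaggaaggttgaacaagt
Rps15a-ps3: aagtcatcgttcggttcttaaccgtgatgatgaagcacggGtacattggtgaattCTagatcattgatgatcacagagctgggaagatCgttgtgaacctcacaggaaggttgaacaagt
Rps15a-ps4: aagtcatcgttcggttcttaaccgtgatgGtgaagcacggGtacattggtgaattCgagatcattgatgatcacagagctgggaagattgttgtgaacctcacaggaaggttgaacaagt
Rps15a-ps6: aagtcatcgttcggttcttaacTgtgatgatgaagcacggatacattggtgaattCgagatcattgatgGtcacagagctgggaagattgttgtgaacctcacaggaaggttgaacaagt
Rps15a-ps7: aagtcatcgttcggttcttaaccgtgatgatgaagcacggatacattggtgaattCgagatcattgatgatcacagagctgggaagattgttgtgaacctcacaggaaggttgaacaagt
Over the 453 coding bases of Rps13, Rps13-ps1 differed at T411C and A429G, where the parent's base comes first. Rps13-ps2 was identical over all 453. Of 3 other Rps13 pseudogenes compared over at least 90% of those bases, 2 also carried T411C and 1 carried A429G. Rps13-ps7, compared over 363 bases, carried both substitutions, and Rps13-ps8, compared over 382, carried T411C. Rps13-ps4, which was tested and not called, was among those with T411C. Over the 390 coding bases of Rps15a, the 4 called pseudogenes differed at 4 to 9 bases, and all 4 carried T150C. Rps15a-ps7 differed at C7G, G8A, T150C and C362G and lacked 1 base. Of 4 other Rps15a pseudogenes compared, none of which was tested, 3 also carried T150C.

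Rps13-ps1, on chromosome 8, had the lowest adjusted p of all genes. It had 0, 0.0555 and 0.271 CPM at its lowest, median and highest without the allele, and 32.2, 51.1 and 90.6 CPM with it. No heart lay between the 2 sides (log2 difference 9.81, SE 0.29, adjusted p = 9.81e-17). Rps13-ps2, on chromosome 7 within the stretch, went the other way. It had 0.921, 1.51 and 2.57 CPM without the allele and 0 reads in all 12 floxed hearts, at least 198-fold lower against the floor of 3 reads over the 12 libraries. Rps13-ps4, the remaining tested copy of Rps13, was at -0.50 on the log2 scale and was not called. The parent Rps13 itself ranged from 111 to 188.8 CPM without the allele and from 81.0 to 167 CPM with it (log2 difference -0.22, SE 0.10, adjusted p = 0.446).

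The 4 called pseudogenes of Rps15a were all higher. Rps15a-ps7, on chromosome 2, had 0.0614, 0.403 and 1.11 CPM without the allele and 3.59, 6.24 and 12.02 CPM with it (log2 difference 3.74, SE 0.26, adjusted p = 3.69e-11). Rps15a-ps6, on chromosome 11, had a log2 fold change of 2.74, Rps15a-ps4 on chromosome 4 of 2.90, and Rps15a-ps3 on chromosome 4 of 4.08. The floxed and other hearts did not overlap for the first 3 of these 4 pseudogenes, and overlapped only for Rps15a-ps3. Rps15a had 101.3, 128 and 183 CPM without the allele and 55.9, 93.9 and 140 CPM with it, with overlapping ranges (log2 difference -0.36, SE 0.12, adjusted p = 0.216). Mrpl48-ps on chromosome 4 was higher by 1.13 (adjusted p = 0.0388). Gm44075 on chromosome 6 had 0 reads without the allele and was at least 59.1-fold higher over the 12 floxed hearts together. With the allele it had 0, 0.538 and 1.11 CPM, so the 2 sides overlapped at 0. BMAL1/E4BP4 FLOX against E4BP4 FLOX did not call it (adjusted p = 0.0776). The closest coding genes of Mrpl48-ps and Gm44075, namely Mrpl48 (log2 difference -0.15, adjusted p = 0.636) and Trim21 (0.04, adjusted p = 0.946), were not called. Reads of these families can be placed on the parent or on a copy, so the level of each member is uncertain.

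**Figure D4:**
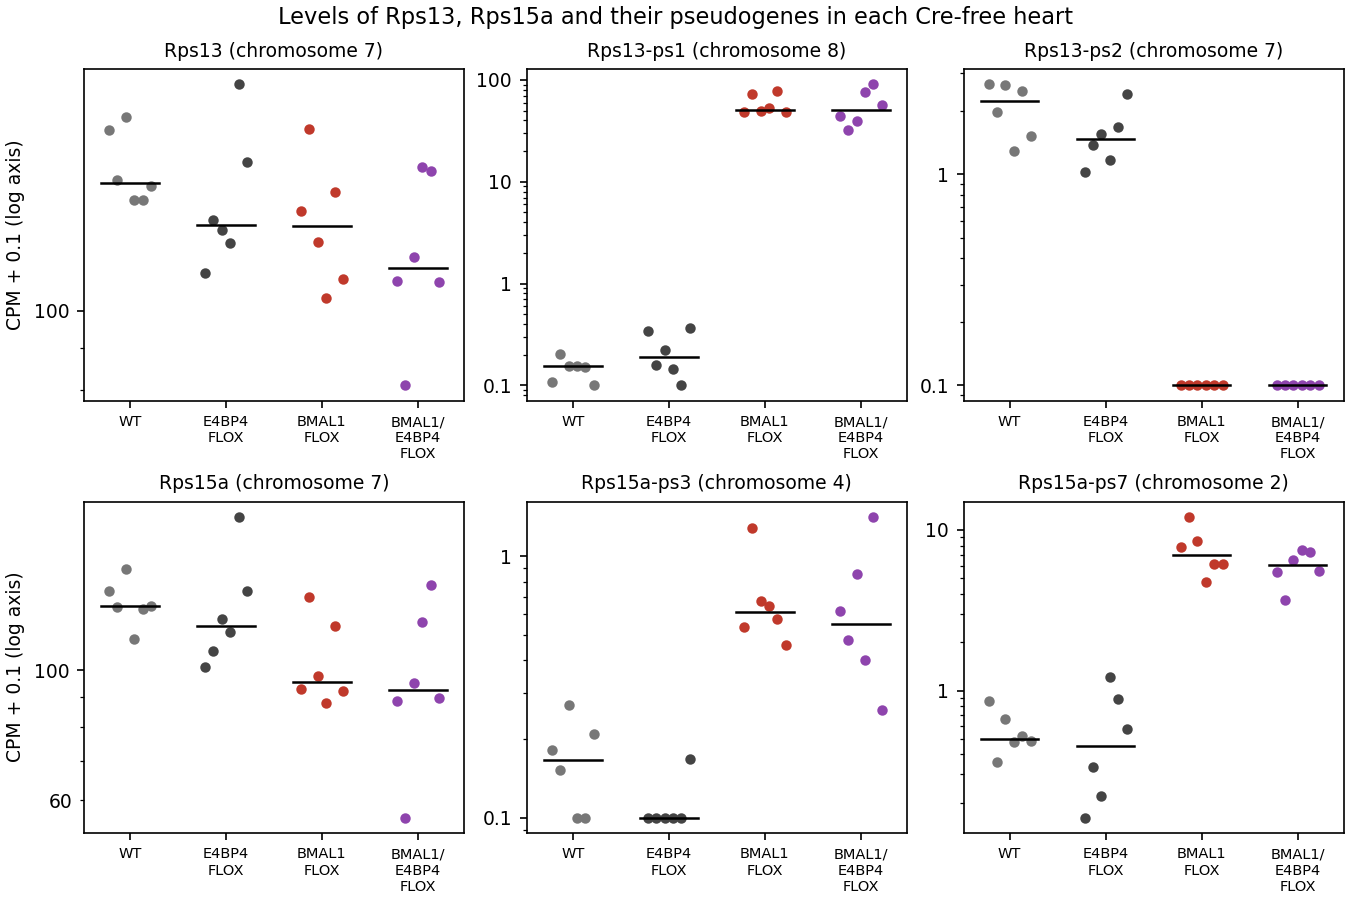
Level (CPM + 0.1, log axis) of Rps13, Rps15a and 4 of their pseudogenes in each Cre-free heart, 1 point per library and a bar at the group median. Rps13-ps1 rises from at most 0.271 CPM to at least 32.2 CPM in floxed Bmal1 hearts, Rps13-ps2 is at 0 in all 12 of them, and the parents overlap between groups.

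The allele was compared in 2 pairs of groups that share no library. BMAL1 FLOX against WT called 54 genes (0.349%), 30 higher (0.194%) and 24 lower (0.155%), of which 28 were on chromosome 7. BMAL1/E4BP4 FLOX against E4BP4 FLOX called 44 genes (0.285%), 28 higher (0.181%) and 16 lower (0.103%), of which 27 were on chromosome 7. The 29 genes called in both made up 53.7% of the first list and 65.9% of the second, and all 29 had the same direction. Of these, 23 lay in the chromosome 7 stretch. The other 6 were Rps13-ps1, the 4 Rps15a pseudogenes, and Wdfy1 on chromosome 1. Without BMAL1/E4BP4 FLOX replicate 6 the second pair called 74 genes, 32 higher and 42 lower, and 31 genes were called in both. The 12 libraries of the second pair fitted alone gave 22 calls, and DESeq2 gave 92. The difference between the 2 comparisons was called for 0 genes by edgeR, with 712 genes at an unadjusted p under 0.05 beside 773 expected at that threshold. DESeq2 and limma voom also called 0, and edgeR without BMAL1/E4BP4 FLOX replicate 6 called 4.

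**Figure D5:**
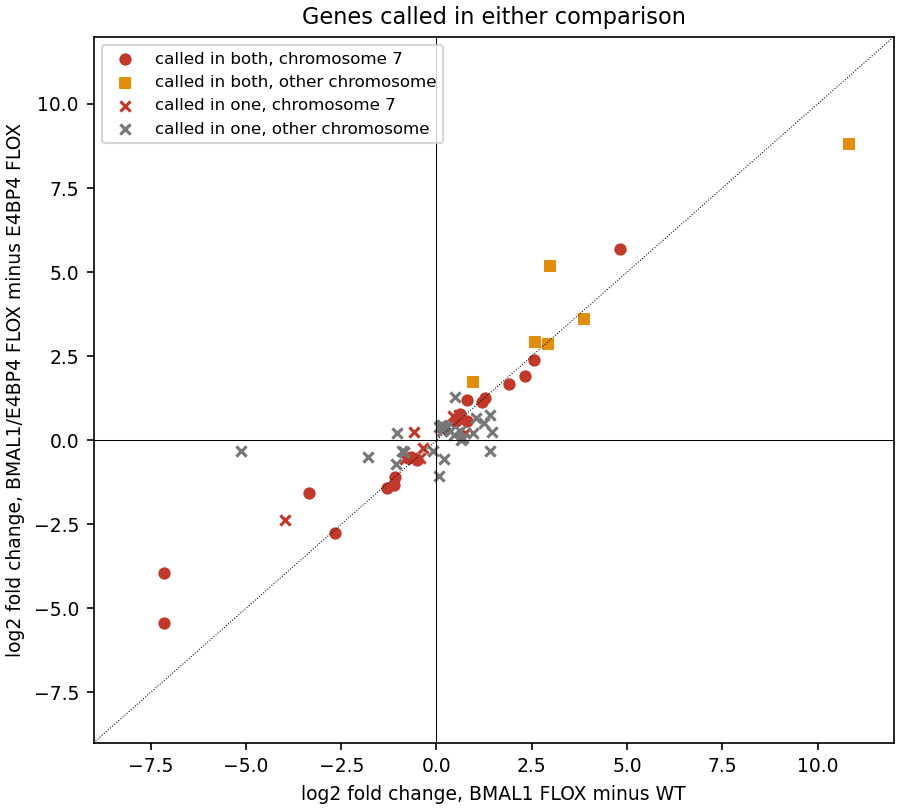
Log2 fold change in BMAL1 FLOX minus WT (horizontal axis) and in BMAL1/E4BP4 FLOX minus E4BP4 FLOX (vertical axis) for 64 of the 69 genes called in either; 5 with a group at 0 or a side at 3 reads or fewer are left out. Circles and squares are genes called in both, red on chromosome 7, and the dotted line marks equal values.

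Wdfy1, which encodes an endosomal adaptor of Toll-like receptor signalling, was the single gene called in both pairs that was neither on chromosome 7 nor one of these pseudogenes. It had 6.40, 7.43 and 7.73 CPM in WT and 6.26, 7.77 and 11.1 CPM in E4BP4 FLOX. In BMAL1 FLOX it had 9.08, 14.98 and 20.2 CPM, and in BMAL1/E4BP4 FLOX 25.4, 26.5 and 30.4 CPM. The highest group did not overlap any other group, while the lower part of BMAL1 FLOX reached into the E4BP4 FLOX range. Over both pairs the log2 fold change was 1.36 (SE 0.11, adjusted p = 3.00e-10). BMAL1/E4BP4 FLOX exceeded BMAL1 FLOX by 0.92 on the log2 scale (adjusted p = 0.00452). That contrast called 2 genes (0.0129%), both higher, the other being AC102496.1, though the fit of all 48 libraries called 0 and DESeq2 called 5. E4BP4 FLOX against WT called 1 gene (0.00647%), Zswim9 on chromosome 7, at -0.75 (adjusted p = 0.0368). That count was 29 without BMAL1/E4BP4 FLOX replicate 6, 35 with DESeq2, 35 with limma voom and 0 in the fit of all 48 libraries. Wdfy1 was the sole call among 18 tested genes listed as known to vary between mouse substrains and strains, beside 0.724% of all genes tested. Nnt, the nicotinamide nucleotide transhydrogenase gene of that list, was at -0.29 (adjusted p = 0.741).

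Chromosome 5 had 11 calls among 1012 tested genes (1.09%). Of these 11 genes BMAL1 FLOX against WT called 7, namely Adgra3, Cox18, Gm3716, Gm43320, Lgi2, Ociad2 and Rbpj, and BMAL1/E4BP4 FLOX against E4BP4 FLOX called 0. The difference between the pairs was called for none of them. In 1 window of 50 tested genes 5 were called, namely Adgra3, Gm43320, Lgi2, Rbpj and Tbc1d19, while the other windows outside chromosome 7 held 0, 1 or 2. Cox18, which encodes an assembly factor of cytochrome c oxidase, had 11.3, 13.2 and 17.4 CPM in WT and 7.37, 10.01 and 10.4 CPM in E4BP4 FLOX. It had 6.21, 7.73 and 8.38 CPM in BMAL1 FLOX and 6.24, 7.78 and 8.72 CPM in BMAL1/E4BP4 FLOX (log2 difference -0.60, SE 0.09, adjusted p = 6.10e-05). WT lay above the rest, and E4BP4 FLOX overlapped the floxed Bmal1 groups. Gm3716, also on chromosome 5, was at -2.73 (adjusted p = 0.0117), with limma voom at an adjusted p of 0.0532. It was at -5.14 in BMAL1 FLOX against WT (adjusted p = 0.00220) and at -0.33 in the other pair (adjusted p = 0.945). Dap on chromosome 15, a death-associated protein gene, was higher in all 6 BMAL1 FLOX hearts, at 29.3, 34.7 and 46.4 CPM, against 16.2, 17.5 and 21.02 CPM in WT (log2 difference over both pairs 0.59, SE 0.09, adjusted p = 0.000250). BMAL1/E4BP4 FLOX had 15.3, 21.99 and 29.1 CPM and overlapped E4BP4 FLOX at 16.3, 19.8 and 22.4 CPM. The difference for Dap between the pairs was not called (adjusted p = 0.694). AC102496.1 on chromosome 18 was at -1.14 over both pairs (adjusted p = 0.00141), at -1.80 in BMAL1 FLOX against WT (adjusted p = 0.000788) and at -0.49 in BMAL1/E4BP4 FLOX against E4BP4 FLOX (adjusted p = 0.650).

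Among 12 cardiomyocyte markers 2 were called, beside 0.724% of all genes. Myh6, the alpha myosin heavy chain gene of cardiomyocytes, had a median of 18786 CPM without the allele (range 17324 to 22209) and 23822 CPM with it (range 20957 to 28430). The ranges overlapped, and the log2 fold change was 0.32 (SE 0.06, adjusted p = 0.00220). Pln, which encodes the calcium pump inhibitor phospholamban, was at -0.23 (SE 0.06, adjusted p = 0.0420), a call lost when any of 17 of the 24 libraries was left out. Over the 12 markers the median log2 fold change was 0.04, and 8 were above 0. The mitochondrial genome had 2 of 11 listed genes called lower, beside 0.291% of all genes tested. They were mt-Cytb at -0.38 (adjusted p = 0.0388) and mt-Nd1 at -0.33 (adjusted p = 0.0442), and the median of the 11 was -0.33. Leaving out 1 library ended the call of mt-Cytb in 14 cases and that of mt-Nd1 in 19, out of 24 each. Mitochondrial genes took 26.2% ± 2.72 of reads in WT, 25.1% ± 1.85 in E4BP4 FLOX, 21.4% ± 2.94 in BMAL1 FLOX and 21.2% ± 4.11 in BMAL1/E4BP4 FLOX (SD, n = 6 each).

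Slc41a3, a magnesium transporter gene listed as dependent on Bmal1 in the heart, was higher, at 17.2, 23.8 and 31.8 CPM without the allele and 21.3, 35.2 and 43.6 CPM with it. The ranges overlapped (log2 difference 0.45, SE 0.10, adjusted p = 0.0148). In Cre hearts its difference was 3.35 on the log2 scale (SE 0.10, adjusted p = 1.27e-19). With Dgat2, which lies in the chromosome 7 stretch, Slc41a3 made 2 calls among 21 genes listed as Bmal1-dependent in the heart. Their median log2 fold change was -0.05, and 0.724% of all genes tested were called. Cd163, a scavenger receptor gene of resident macrophages, was at 0.45 (adjusted p = 0.0420) and lost its call when any of 17 of the 24 libraries was left out. Of 18 macrophage markers it alone was called, 16 were above 0 and the median was 0.20. They summed to 358 to 421 CPM in WT, 266 to 428 CPM in E4BP4 FLOX, 383 to 518 CPM in BMAL1 FLOX and 350 to 441 CPM in BMAL1/E4BP4 FLOX. Kap, the kidney androgen-regulated protein gene, was below 0.2 CPM in every heart without the allele and between 0 and 4.25 CPM with it (adjusted p = 0.0332). Its adjusted p was 0.333 with limma voom, and leaving out any of 15 of the 24 libraries ended the call. No gene was called among 32 interferon response genes (median 0.19, 28 above 0), 35 matrix genes (median 0.15, 30 above 0), 35 fatty acid oxidation genes, 31 glucose metabolism genes or 35 nuclear oxidative phosphorylation genes.

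The Cre-positive groups share no library with the Cre-free groups and also differ by floxed Bmal1, but with Cre the contrast includes the removal of Bmal1 sequence in cardiomyocytes as well as the allele, and the 2 cannot be told apart there. In these hearts, CBK and CBK/CEK against Cre CON and CEK called 2113 of 15714 genes, 1135 higher (7.22%) and 978 lower (6.22%). Of the 45 genes called in the stretch in Cre-free hearts, 43 had the same sign in Cre hearts, 37 were called there in the same direction and 0 in the opposite one. Of the 67 genes called elsewhere, 57 had the same sign, 29 were called in the same direction and 2 in the opposite one. Rps13-ps1 differed by 10.53 on the log2 scale in Cre hearts (SE 0.39, adjusted p = 2.54e-15), beside 9.81 without Cre. Fah differed by 0.82 (adjusted p = 0.000540) and Hddc3 by 2.76 (adjusted p = 8.46e-10). The Cre-positive animals with floxed Bmal1 are littermates of the Cre-free ones and have the same animal-name prefix as the Cre-free floxed Bmal1 animals, so here too the allele and the series of animals cannot be told apart.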

How the data were processed

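RNA from 48 mouse hearts was sequenced with 1 library per animal. The deposited values are raw read counts per gene, made by the authors; the submitters' processing notes name GRCm39 and the tools HTSeq 0.11.1, STAR 2.7.9a and bcl2fastq 2.18.0.12. The sources used here do not give the annotation release, strand setting, read placement rules or time of collection. The 5 HTSeq summary lines were dropped; assigned reads averaged 63.1% to 69.3% of all counts over the Cre-free groups. Because the kit's strand handling is not given, overlapping and antisense genes cannot be separated, and close copies share reads.

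The 24 Cre-free libraries were fitted in edgeR 4.0.16 (R 4.3.3) with TMM scaling, filterByExpr, robust quasi-likelihood dispersion and 4 group means, leaving 20 residual degrees of freedom. The contrast was the mean of both floxed Bmal1 groups minus the mean of both others. The 24 Cre-positive libraries had a fit of their own. Adjusted p-values are Benjamini-Hochberg over all genes tested and two-sided. The code was tested on simulated data. DESeq2 1.42.0 and limma 3.58.1 were alternatives, and alternatives without WT replicate 1 and BMAL1/E4BP4 FLOX replicate 6 together, and those for the chromosome 7 stretch and for genes called in both pairs, were chosen after seeing the data. Of 53700 listed IDs, 52147 (97.11%) matched GENCODE M21, whose build differs from that of the counts, so chromosomes and gene order are given without coordinates. Pseudogenes were matched to coding transcripts with blastn 2.17.0. Intervals and floors cover counting error only.

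The members and gene lists were chosen with earlier results of these data known. Named were Arntl, Nfil3 and the clock list, 12 called genes per direction with the largest difference, 1 sign in both pairs and at least 1 CPM in a group, called genes within 50 tested genes of Arntl, and up to 3 called genes per list. Other genes were chosen after their values were seen. Lists without a call that are not described in the report are given among the other observations.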

Additional observations from a re-analysis of the deposited data

Results flagged for a closer look

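Single hearts stood apart from the other 5 of their group, by Dixon's gap test at its 95% level, in 23 of 260 sets of 6 values; about 13 would be so by chance. BMAL1/E4BP4 FLOX replicate 6 accounted for 9. It had 13128833 assigned reads, fewest of its group, and ENSMUSG00000119584 took 34.77% of its reads, against at most 2.872% in the rest of the group. It was highest of its group in Trim12a (14.29 CPM), Trim5 (1.681 CPM), Gm45012 (0.7206 CPM), Gm35082 (2.882 CPM) and the clock gene Per3 (58.85 CPM), and lowest in Bhlhe41 (24.74 CPM) and Timeless (11.65 CPM). Of all counts of this library, 53% were assigned to a gene and 27.38% fell on no gene. In the rest of the group these shares were at least 66.35% and at most 10.19%. Whether depth, the assigned share or the read share of ENSMUSG00000119584 had a part in these values was not tested.

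WT replicate 1 was deeper than its group, with 126338949 assigned reads. In E4BP4 FLOX, replicate 4 was high in Arntl (1.691 CPM) and Trim34a (2.908 CPM), replicate 5 in Bhlhe40 (44.83 CPM), replicate 6 in Gm3716 (2.145 CPM), replicate 3 in Hbb-bt (45.76 CPM) and replicate 2 in Trim34b (0.0464 CPM). WT replicate 3 was high in Myh6 (21150 CPM) and Trim34b (0.1558 CPM). In BMAL1 FLOX, replicate 4 was high in Kcnj14 (40.52 CPM) and Gm45012 (0.0716 CPM), replicate 5 in Myh6 (28430 CPM) and replicate 3 in Rps15a-ps4 (3.808 CPM). BMAL1/E4BP4 FLOX replicate 4 was high in Tmc5 (0.0864 CPM). The values of Trim34b, Gm45012 and Tmc5 in this paragraph rest on few reads.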

How the results depend on the processing

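Leaving out 1 library at a time gave 83 to 139 calls over all genes (0.526% to 0.883%) in place of 112, 45 to 53 in place of 51 on chromosome 7, 41 to 48 in place of 45 in its stretch, 41 to 59 in place of 54 for BMAL1 FLOX against WT, 32 to 74 in place of 44 for BMAL1/E4BP4 FLOX against E4BP4 FLOX, 24 to 31 in place of 29 for genes called in both and 33 to 38 for the 38 named genes. It gave 0 to 4 for the difference of the pairs, 2 to 3 in place of 2 for BMAL1/E4BP4 FLOX against BMAL1 FLOX (0.0129%), 0 to 29 in place of 1 for E4BP4 FLOX against WT (0.00647%) and 1872 to 2287 in Cre hearts. The 29 calls arose without BMAL1/E4BP4 FLOX replicate 6. The cause was not tested.

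At an adjusted p under 0.01 the counts were 53 over all genes (0.343% of those fitted, beside 0.724%), 32 on chromosome 7, 33 for BMAL1 FLOX against WT, 0 for E4BP4 FLOX against WT and 1273 in Cre hearts. DESeq2 called 111 genes higher and 76 lower over all genes (1.21%), 92 for BMAL1/E4BP4 FLOX against E4BP4 FLOX, 5 for BMAL1/E4BP4 FLOX against BMAL1 FLOX and 35 for E4BP4 FLOX against WT, where limma voom also called 35. The second pair gave 68 calls without WT replicate 1 and BMAL1/E4BP4 FLOX replicate 6, and 22 when fitted alone. In the fit of all 48 libraries, 0 genes were called for BMAL1/E4BP4 FLOX against BMAL1 FLOX and 0 for E4BP4 FLOX against WT.

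Replicate numbers were not taken as pairs in the main fit. Same-numbered libraries of different groups had a mean correlation of deviations of 0.0192 over 36 pairs (-0.123 to 0.317), beside -0.0035 for other pairs. Of 24 libraries, 8 correlated best with their own number, and the number expected by chance was not computed. A replicate block gave 122 calls over all genes, 51 on chromosome 7, 57 and 43 in the 2 pairs and 11 for E4BP4 FLOX against WT. Of the 38 named called genes 28 kept the call under every alternative that gave them an adjusted p, 33 or 34 alternatives per gene. The stricter adjusted p threshold was not among these. For each of the 38 the lowest and highest log2 fold change over these alternatives had the same sign. The 24 named genes without a call were called under no alternative, and their signs were not compared. Depth limits genes near 1 CPM.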

Other observations

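With the floxed Bmal1 allele, 0 genes were called among 20 MHC genes (median log2 fold change 0.13, 17 above 0), 23 immediate early genes (-0.17), 18 heat shock and cold-inducible genes (0.09), 17 glucocorticoid response genes (0.00), and 0 among 13 fibroblast, 15 endothelial, 11 mural, 11 atrial, 8 lymphocyte, 8 skeletal muscle, 9 mesothelial and 2 thymus and lung markers. Of 19 hypertrophy and fetal genes Myh6 alone was called (median 0.04), beside 0.724% of all genes tested.

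E4BP4 FLOX against WT, neither of which has floxed Bmal1, differed at 1146 genes by an unadjusted p under 0.05, beside 773 expected at that threshold. These groups also differ in animal-name prefix, so the E4bp4 allele and the series of animals cannot be told apart. The adjusted calls were 1 with edgeR, 29 with edgeR without BMAL1/E4BP4 FLOX replicate 6, 35 with DESeq2, 35 with limma voom and 0 in the fit of all 48 libraries.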
